A study of Mus musculus with 2 samples.

Results

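The 4 tropomyosin genes of the mouse, Tpm1, Tpm2, Tpm3 and Tpm4, were described in adult gastrocnemius, the large muscle of the calf. They were taken by symbol from the 55536 genes of the deposited tables, and all 45 of their annotated transcripts were followed: 21 of Tpm1, 6 of Tpm2, 16 of Tpm3 and 2 of Tpm4. Total RNA came from 2 female B6CASTF1/J mice aged 8 to 10 months, F1 hybrids of the B6 and CAST strains, and each gave 1 strand-specific library, made from 300 ng of ribosomal-reduced RNA to which ERCC spike-ins were added. There is a single group with no treatment, so no test between groups was possible and no p-value is given. Animal 1 is replicate 1 and animal 3 is replicate 2. A single donor identifier stands in the labels of both, although tissue samples and animal numbers differ, so the spread between them (SD, n = 2) may be in part technical.

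Tropomyosin is a coiled-coil dimer that lies along the actin filament, and in striated muscle it moves with the troponin complex to open or close the binding sites for myosin. Each gene makes several proteins by choosing among alternative exons. A first coding exon named 1a gives long proteins that span more actin subunits, and the exon 1b promoter gives short ones. Exons 6a and 6b exclude each other in the middle of the protein, and the last coding exon, 9a in striated muscle and 9d in most other cells, sets the end that overlaps the next molecule and meets troponin T. A transcript was called striated type here if it starts with exon 1a and ends with exon 9a.

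The C-terminal coding ends show what separates striated from other transcripts, and they are given for the transcripts on which the results turn. The sequences come from the GENCODE M21 transcripts, with mm10 coordinates, 5′ to 3′ on the coding strand. Each holds the 80 coding bases after exon 8, without the stop codon, and capitals mark bases that differ from the striated end of Tpm1. That end lies at chr9:67029664-67029742 on the minus strand, with its last coding base at chr9:67028167 in a further exon. The striated end of Tpm2 lies at chr4:43515924-43516003 (minus strand). The striated end of Tpm3 lies at chr3:90091013-90091091 (plus strand), with its last base at chr3:90091931. The other ends are exon 9d of Tpm1 at chr9:67023362-67023441 (minus strand) and the sole end of Tpm4 at chr8:72151742-72151821 (plus strand).
Tpm1 exon 9a: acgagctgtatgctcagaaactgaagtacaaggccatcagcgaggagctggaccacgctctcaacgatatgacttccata
Tpm3 exon 9a: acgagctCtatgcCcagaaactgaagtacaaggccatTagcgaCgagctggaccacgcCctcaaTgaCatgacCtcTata
Tpm2 exon 9a: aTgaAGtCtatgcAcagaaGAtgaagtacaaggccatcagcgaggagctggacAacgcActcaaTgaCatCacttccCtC
Tpm1 exon 9d: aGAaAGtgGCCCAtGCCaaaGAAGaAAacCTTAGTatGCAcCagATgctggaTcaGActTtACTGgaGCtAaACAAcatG
Tpm4 exon 9d: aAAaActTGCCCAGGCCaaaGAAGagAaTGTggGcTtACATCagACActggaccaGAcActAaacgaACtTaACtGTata
The striated ends of different genes were more alike than the alternative ends of a single gene. Exon 9a of Tpm1 shared 71 of 80 bases with exon 9a of Tpm3 (88.8%) and 66 of 80 with that of Tpm2 (82.5%). It shared 34 of 80 with exon 9d of its own gene (42.5%). The sole end of Tpm4 shared 53 of 80 bases with exon 9d of Tpm1 and 38 of 80 with exon 9a of Tpm1.

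Exons 6a and 6b matter because the deposited quantifications divided Tpm1 and Tpm2 reads between them differently. Both are 76 bases long, and capitals mark the bases that differ within each pair. In Tpm1, exon 6a lies at chr9:67032466-67032541 and exon 6b at chr9:67031951-67032026, both on the minus strand. In Tpm2, exon 6a lies at chr4:43519003-43519078 and exon 6b at chr4:43518644-43518719, both on the minus strand.
Tpm1 exon 6a: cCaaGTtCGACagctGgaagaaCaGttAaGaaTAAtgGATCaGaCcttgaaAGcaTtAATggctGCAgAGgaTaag
Tpm1 exon 6b: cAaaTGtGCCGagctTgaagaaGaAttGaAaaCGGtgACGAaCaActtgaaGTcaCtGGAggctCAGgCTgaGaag
Tpm2 exon 6a: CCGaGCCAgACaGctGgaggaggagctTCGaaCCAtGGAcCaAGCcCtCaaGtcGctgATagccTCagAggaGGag
Tpm2 exon 6b: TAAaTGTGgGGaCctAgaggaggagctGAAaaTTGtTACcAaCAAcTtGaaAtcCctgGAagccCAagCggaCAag
Within a pair, 43 of 76 bases were identical in Tpm1 and 41 of 76 in Tpm2.

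**Figure D1:**
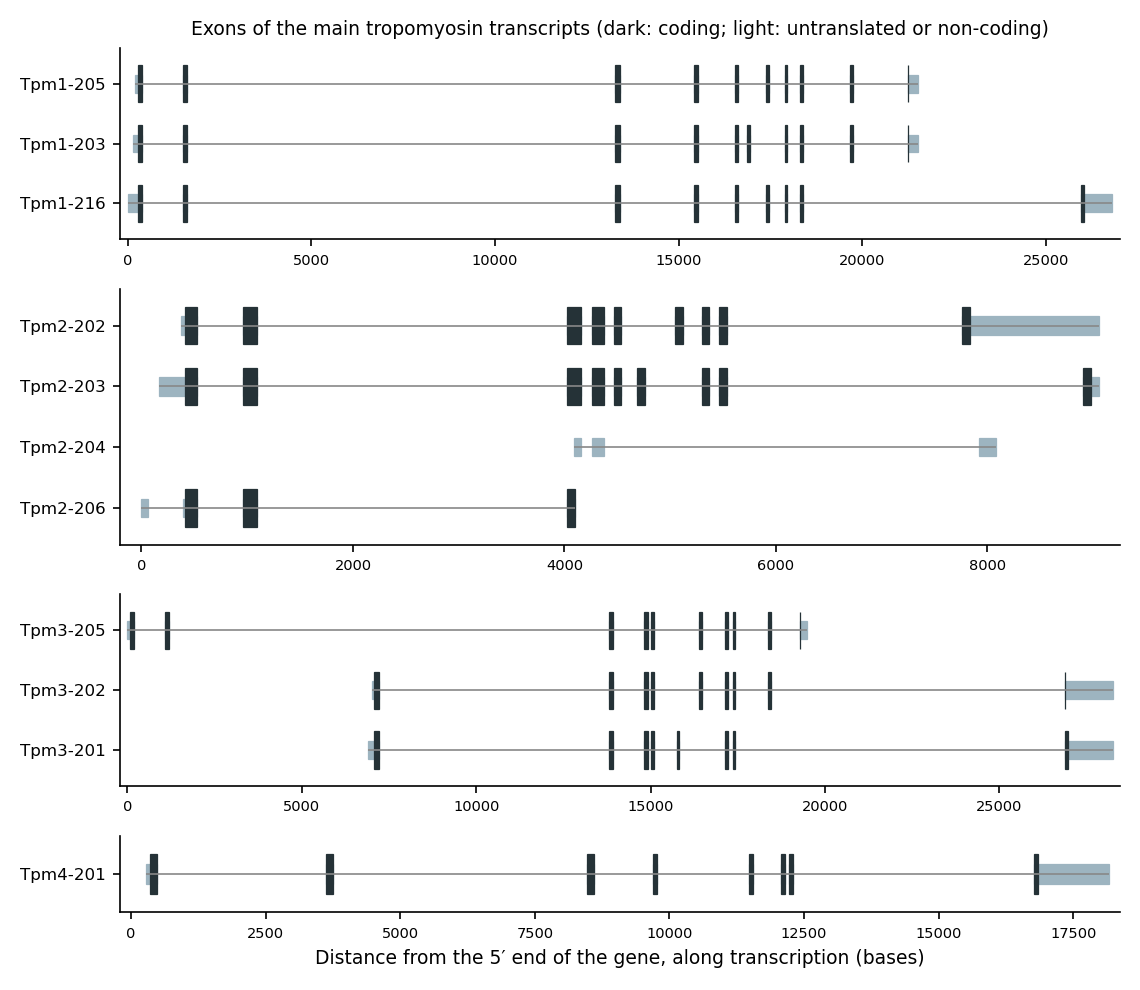
Exon structure of the main tropomyosin transcripts, with distance from the 5′ end of the gene in bases on the x axis and 1 transcript per line. Dark boxes are coding and light boxes untranslated or non-coding; the last exon of Tpm2-203 overlaps the end of the long last exon of Tpm2-202, and all 337 bases of Tpm2-204 lie within exons of Tpm2-202.

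The libraries held 42714567 expected counts in replicate 1 and 43421652 in replicate 2. A count of 0 allows up to 3 counts, or 0.0704 and 0.0693 CPM (counts scaled to a fixed library total), and such limits cover counting error only, since reads carry no molecular identifiers. Counts differed by more than sampling noise between the libraries (over 11125 genes, a chi-square of 29.2 for each degree of freedom). The tissue label was checked against muscle markers: all 6 fast fibre markers and all 6 slow fibre markers exceeded 1 TPM in both animals. Their summed levels were 52935 ± 4728 and 1635 ± 46.4 TPM. TPM is a level, scaled for transcript length and depth. Transcripts were quantified by the authors in 2 ways, called here the first (from transcriptome alignments) and the second (directly from reads), and values are from the first unless stated.

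Tropomyosin transcripts were dominated by Tpm1, the alpha gene of fast fibres and heart, followed by Tpm2, the beta gene. Tpm1 stood at 11281 TPM in replicate 1 and 10079 TPM in replicate 2 (10680 ± 850, SD, n = 2), the 8th highest of 22015 nuclear protein-coding genes. Tpm2 stood at 2109 and 2137 TPM (2123 ± 19.6), rank 20. Tpm3, the alpha gene of slow fibres, stood at 171 and 186 TPM (179 ± 10.0), rank 304. Tpm4, whose short protein belongs to the cytoskeleton, stood at 11.9 and 6.39 TPM (9.13 ± 3.87), rank 4514. Both animals gave this order, and no neighbours overlapped. The SDs depended on the scaling of TPM. Rescaled over nuclear protein-coding genes, Tpm1 stood at 10679 ± 33.1 TPM and Tpm2 at 2130 ± 182 TPM, so the small SD of Tpm2 is no sign of steadiness.

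The steps between genes were far larger than the spread between animals. Tpm1 exceeded Tpm2 5.03 ± 0.447 times, Tpm2 exceeded Tpm3 11.9 ± 0.558 times, and Tpm3 exceeded Tpm4 21.8 ± 10.3 times. The last ratio was 14.5 in replicate 1 and 29.0 in replicate 2, because Tpm4 was lower and Tpm3 higher in replicate 2. In shares of the family's TPM, Tpm1 held 82.2 ± 1.33%, Tpm2 16.4 ± 1.19%, Tpm3 1.38 ± 0.165% and Tpm4 0.0694 ± 0.0254%. By the second quantification Tpm1 held 77.8 ± 1.38% and Tpm2 20.9 ± 1.26%, which brought the ratio of Tpm1 to Tpm2 to 3.73 ± 0.290. With transcripts under 500 bases set aside, an alternative chosen after seeing the data, Tpm2 held 10.4 ± 0.512% of the family. All 4 genes together came to 12991 ± 824 TPM, or 2.84 ± 0.0371% of nuclear protein-coding TPM.

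**Figure D2:**
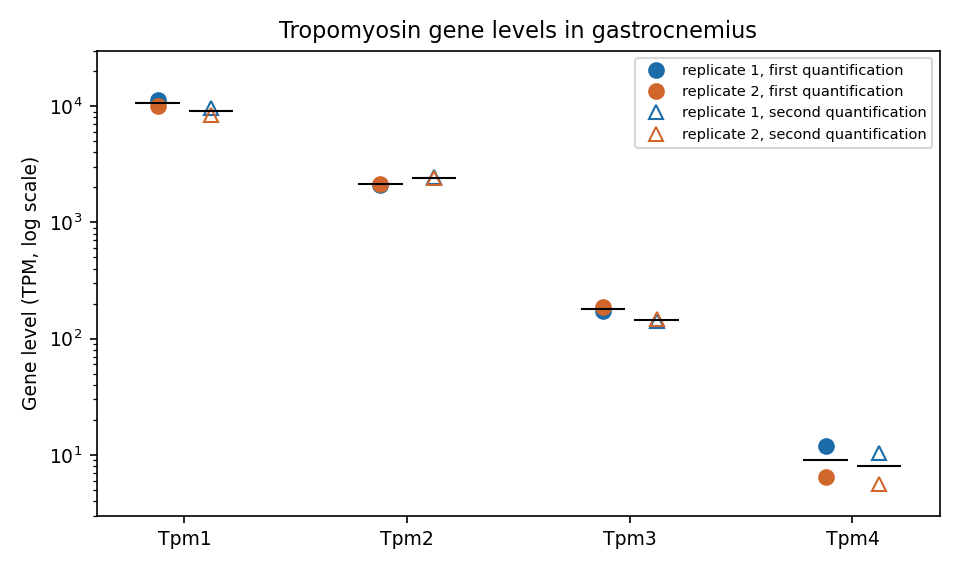
Levels of the 4 tropomyosin genes in TPM on a log axis, for each replicate (colour) and each quantification (filled circles first, open triangles second), with bars at the mean of the 2 animals. The genes lie in the same order in every case, from Tpm1 near 10680 TPM to Tpm4 near 9.13 TPM, and the animals are farthest apart for Tpm4.

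The gene models lie on 4 chromosomes. Tpm1 (ENSMUSG00000032366.15) spans chr9:67022590-67049406 on the minus strand and Tpm2 (ENSMUSG00000028464.16) chr4:43514711-43523765 on the minus strand. Tpm3 (ENSMUSG00000027940.18) spans chr3:90072649-90100902 on the plus strand and Tpm4 (ENSMUSG00000031799.9) chr8:72134975-72153142 on the plus strand.

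Tpm1 in this muscle was mostly of striated type by either quantification. Striated-type transcripts made up 97.8% of its TPM in replicate 1 and 97.4% in replicate 2 (97.6 ± 0.264%), against 92.9 ± 0.0452% by the second quantification. Shares of counts, which grow with transcript length, were 98.5 ± 0.106%, and 88.9 ± 0.0555% by the second quantification. Among its complete coding transcripts, exon 1a was used in 99.95 ± 0.0174% and exon 2b in 99.98 ± 0.00677%. Exon 2a, known from smooth muscle, took 0.0230 ± 0.00677%, and 0.0289 ± 0.00135% by the second quantification. The quantifications thus gave close values for the start of the protein, and both placed striated ends far above the others.

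They differed on exon 6 and, less, on the end. Tpm1-205, which joins 1a, 2b, 6b and 9a, held 96.9% and 96.4% of Tpm1 TPM (10322 ± 855 TPM). By the second quantification it held 64.8% and 65.4% (5892 ± 522 TPM). Tpm1-203, which has exon 6a in place of 6b, held 0.87% and 0.95%, but 28.0% and 27.4% by the second quantification. Tpm1-216, which keeps 6b and ends in 9d, held 0.11% and 0.09%, but 6.56% and 6.51% by the second. Exon 6b was accordingly used in 99.1 ± 0.0570% of complete coding Tpm1 by the first quantification and 72.2 ± 0.401% by the second. Exon 9a was used in 99.8 ± 0.0253% and 93.2 ± 0.0324%. In each case the animals lay within 1 percentage point of each other, and the quantifications lay much farther apart.

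The annotated first exon has 246 bases in Tpm1-203 and 388 in Tpm1-216, against 195 in Tpm1-205. Tpm1-202, with a first exon of 191 bases, also had more in the second quantification, with 0.0499% and 0.0511% of Tpm1 TPM against 0 in the first. Tpm1-203 differs from Tpm1-205 by 127 of its 1259 bases, namely exon 6a and the added 5′ bases. Neither Tpm1-203 nor Tpm1-205 has a base or a splice junction that is found in no other transcript of the gene. The first quantification put 3381 ± 254 expected counts on Tpm1-203 and the second 103645 ± 312 estimated counts. The cause of this difference was not tested.

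In Tpm2 the leading transcript itself changed with the quantification. Its striated-type transcript Tpm2-202 (exons 6b and 9a) stood at 1019 and 971 TPM (995 ± 34.1), or 48.3% and 45.4% of Tpm2 TPM. Tpm2-203, which joins exons 6a and 9d as in smooth muscle and fibroblasts, held 12.4% and 12.6% (266 ± 5.23 TPM). The rest lay mainly on fragments. Tpm2-206, an incomplete coding model of 401 bases, held 27.7% and 27.2%, and Tpm2-204, a non-coding model of 337 bases, held 11.4% and 14.6%.

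By the second quantification Tpm2-204 led the gene with 44.3% and 46.5%, Tpm2-202 held 30.4% and 28.9%, and Tpm2-203 held 23.9% and 24.3%. Tpm2-206 stood there at 1.39% and 0.20%. The fragments carried few reads for their TPM. Tpm2-204 had 2.61 ± 0.532% of Tpm2 expected counts, and 5.74 ± 0.276% of estimated counts in the second quantification, where its effective length was 103 bases. The first quantification gave it an effective length of 237 bases. Dividing by so short a length turns a small share of reads into a large share of TPM. All 337 bases of Tpm2-204 also lie in exons of Tpm2-202, with 1 splice junction found in no other Tpm2 transcript.

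Counted by reads, Tpm2 was mostly striated type. Read counts grow with transcript length, and Tpm2-202 has 2098 bases against 1164 in Tpm2-203, so shares of counts favour the striated type. Tpm2-202 held 79.8% and 78.2% of Tpm2 expected counts (79.0 ± 1.10%), and 67.0 ± 0.944% of estimated counts in the second quantification. Among complete coding transcripts by TPM, its share was 78.9 ± 0.898% by the first and 55.2 ± 1.15% by the second. Tpm2-203 held the remainder, so exons 6b and 9a were assigned together in these shares and exons 6a and 9d in the other 21.1 ± 0.898% and 44.8 ± 1.15%. This pairing is in part fixed by the annotation, which has no complete Tpm2 transcript with 6b and 9d. Tpm2-201, which joins 6a and 9a, is annotated but was given no share. Tpm2-202 thus exceeded Tpm2-203 in both animals by each of these measures. The size of the 9d share differed by more than 2-fold between quantifications. The 80 coding bases of exon 9d in Tpm2-203 also lie within the 1212 bases that follow the coding sequence in Tpm2-202, stop codon included, and its first exon has 355 bases against 148 in Tpm2-202.

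Tpm2-203 at 266 ± 5.23 TPM, or 584 ± 3.24 TPM by the second quantification, was higher than the markers of smooth muscle and pericytes measured beside it. The highest of these were Rgs5 at 59.4 ± 13.7 TPM and Smtn at 28.6 ± 1.52 TPM. Acta2, smooth muscle actin, stood at 16.7 ± 2.84 TPM, Myh11, smooth muscle myosin, at 5.93 ± 1.64 TPM and Tagln at 12.3 ± 1.05 TPM. The summed level of the 8 markers was 143 TPM in replicate 1 and 115 TPM in replicate 2, while Tpm2-203 stood at 262 and 269 TPM. The 6 fibroblast markers summed to 265 and 205 TPM, above Tpm2-203 in replicate 1 and below it in replicate 2. The part of smooth muscle cells, pericytes and fibroblasts in the Tpm2-203 level was not tested.

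Tpm3 was nearly all Tpm3-205, the slow striated transcript with exons 1a, 6b and 9a. Tpm3-205 stood at 164 and 179 TPM (172 ± 10.8), and by the second quantification at 139 ± 6.68 TPM. Its share was 95.6% and 96.6% of the gene, and 95.0% and 96.8% by the second quantification, so the quantifications differed by less than the animals did. Short transcripts from exon 1b, which serve the cytoskeleton of many cell types, came to 3.71 ± 0.573 TPM, or 2.07 ± 0.205% of Tpm3, and 2.60 ± 0.0800% by the second. Of these, Tpm3-202 joins exon 1b to the striated end 9a and stood at 2.55 ± 0.792 TPM, while Tpm3-201 ends in 9d and stood at 1.16 ± 0.219 TPM. By the second quantification the order of these was the opposite, with 1.19 ± 0.211 and 2.54 ± 0.0286 TPM. The remaining Tpm3 transcripts each stayed under 5% in both quantifications, and 2 of the 16 were at 0 throughout.

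A locus of related sequence, Tpm3-rs7 (chr14:113314608-113316754), had 79.8 and 89.0 expected counts beside 5077 and 6323 of Tpm3. Tpm3 and Tpm3-rs7 had the same deposited posterior SD of their counts, 8.10 in replicate 1 and 8.44 in replicate 2. The level of Tpm3-rs7, 1.37 ± 0.0283 TPM (0.598 ± 0.290 TPM by the second quantification), is therefore uncertain. Its whole count is small beside that of Tpm3. The pseudogene Tpm3-rs2 had a count of 0 in both animals.

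Tpm4 had no transcript of striated type. Its coding transcript Tpm4-201, with exons 1b and 9d, took all of its TPM in the first quantification. In the second it took 93.5% and 94.8%, and the non-coding Tpm4-202 of 359 bases took 6.53% and 5.25%. Those shares rested on 3.07 and 1.57 estimated counts for Tpm4-202.

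**Figure D3:**
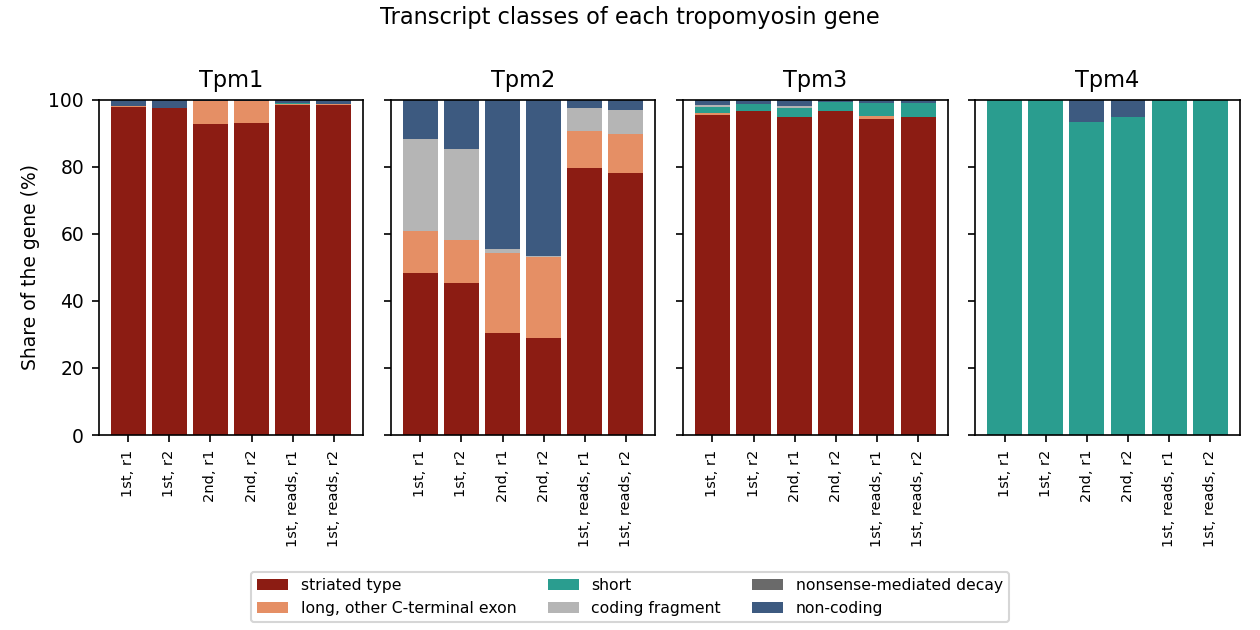
Share of each gene's TPM by transcript class, for the first and the second quantification (1st, 2nd), and share of its expected counts (1st, reads), in replicates 1 and 2 (r1, r2). Striated type takes most of Tpm1 and Tpm3 and is absent from Tpm4. In Tpm2 it takes 46.9% of TPM in the first quantification, 29.6% in the second and 79.0% of expected counts.

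The striated transcripts of all genes, taken as a pool, came mostly from Tpm1 by either quantification. Striated-type transcripts summed to 11595 ± 881 TPM, of which Tpm1 gave 89.9 ± 0.565%, Tpm2 8.60 ± 0.359% and Tpm3 1.49 ± 0.207%. By the second quantification the sum was 9265 ± 828 TPM, with shares of 90.7 ± 0.499%, 7.78 ± 0.292% and 1.51 ± 0.207%. The sum and the shares of Tpm1 and Tpm2 thus shifted by more than the SD between animals, and the order of the genes was the same. Long transcripts with another end summed to 287 ± 2.14 TPM, with 92.6 ± 1.13% from Tpm2, but to 1183 ± 63.6 TPM by the second quantification, with 50.5 ± 2.39% from Tpm1. Short transcripts summed to 18.0 ± 5.53 TPM, of which Tpm4 gave 54.2% in replicate 1 and 45.4% in replicate 2, the largest part. By the second quantification they summed to 25.1 ± 3.65 TPM, and Tpm1 led with 55.5 ± 4.55%, while Tpm4 gave 34.7% and 23.8%.

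**Figure D4:**
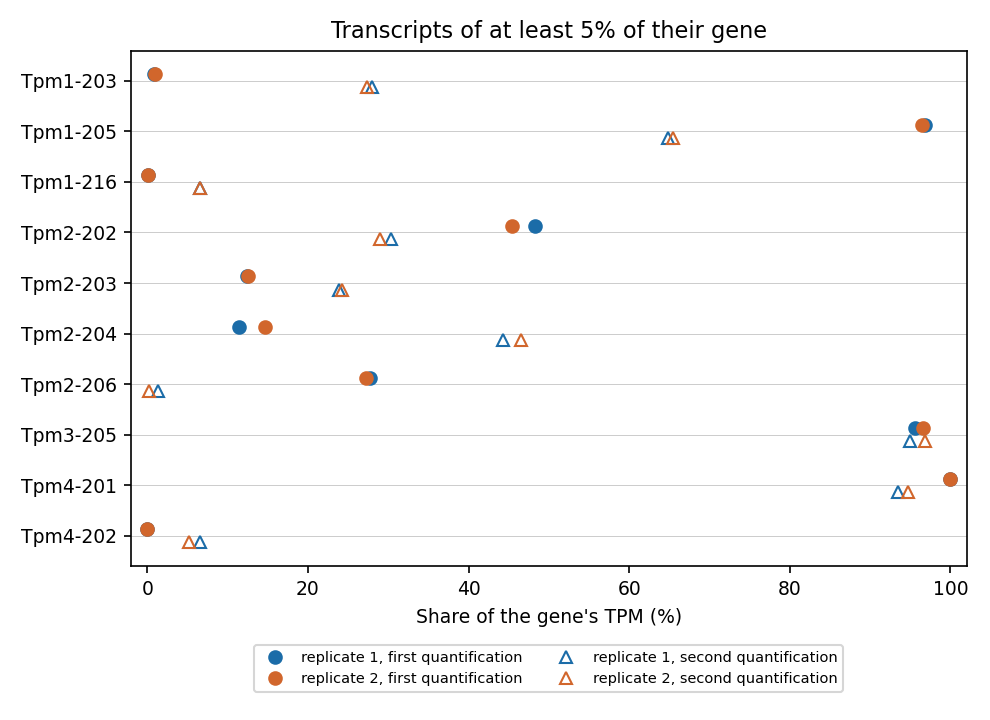
Share of the gene's TPM for the 10 transcripts that reached 5% in any library or quantification, on a linear x axis in percent. Filled circles are the first and open triangles the second quantification, with colours for the animals; Tpm3-205 and Tpm4-201 stay near 100% in both, while the symbols of Tpm1-205, Tpm1-203 and Tpm2-204 are far apart.

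These differences were set beside all 5943 genes of at least 5 TPM that have several transcripts, with thresholds chosen after the tropomyosin values were seen. The same transcript led in both animals and both quantifications for Tpm1, Tpm3 and Tpm4, 3 of 4 members, and for 73.1% of all such genes. The share of the leading transcript differed by at least 15 percentage points between quantifications for Tpm1 (31.5 points) and Tpm2 (17.2 points), 2 of 4 members, against 30.2% of all such genes. Tpm4 differed by 5.89 points and Tpm3 by 0.21 points. Transcripts under 500 bases held at least 25% of TPM in Tpm2 (40.5 ± 1.91%), 1 of 4 members, against 8.6% of all such genes. The counts of 3 and 2 members are near these background shares and are no result about the tropomyosins. The count of 1 member rests on cuts set after Tpm2 was seen, so it is no result either.

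Among the partners of tropomyosin on the thin filament, the fast forms prevailed as Tpm1 did over Tpm3. The 4 tropomyosin genes together had a TPM of 59.7 ± 3.10% of that of Acta1, skeletal alpha-actin (21834 ± 2514 TPM). The fast troponins stood at 14673 ± 882 TPM for Tnnt3, 7789 ± 501 for Tnni2 and 4725 ± 447 for Tnnc2. Their slow counterparts stood at 214 ± 15.2 TPM for Tnnt1, 130 ± 1.13 for Tnni1 and 249 ± 17.7 for Tnnc1. The heart forms of troponins T and I were low, with Tnnt2 at 1.76 ± 0.106 and Tnni3 at 1.05 ± 0.297 TPM. Cardiac actin Actc1 stood at 72.2 ± 14.2 TPM, and the smooth muscle actin Actg2 at 0.20 ± 0.0566 TPM.

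The slow share of the alpha tropomyosins resembled that of troponins T and I in size. Tpm3 made up 1.50% of Tpm1 plus Tpm3 in replicate 1 and 1.81% in replicate 2 (1.65 ± 0.220%). The matching shares were 1.44 ± 0.186% for Tnnt1 with Tnnt3, 1.65 ± 0.0903% for Tnni1 with Tnni2 and 5.04 ± 0.792% for Tnnc1 with Tnnc2. Slow myosin Myh7 made up 2.26 ± 0.132% of Myh1, Myh2, Myh4 and Myh7. All 5 slow shares were higher in replicate 2. The Tnnc1 share lay above the rest in both animals, and was 3.12 ± 0.490% by the second quantification.

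RNA-binding proteins that choose tropomyosin and other muscle exons were followed as a list of 16 genes. Their levels ran from 0 to 279 TPM, and 13 exceeded 1 TPM in both animals. Of 13 with enough counts for a log2 ratio, 9 were higher in replicate 2 (median 0.07) and none reached 2-fold. The highest 3 were Mbnl1 (279 ± 12.7 TPM), Mbnl2 (134 ± 9.31 TPM) and Rbfox1 (99.4 ± 2.43 TPM), all regulators of muscle splicing. Ptbp1, known as a repressor of muscle exons, stood at 6.99 ± 2.99 TPM, with 9.10 in replicate 1 and 4.87 in replicate 2. Its counts were closer, at 312 and 255 (log2 ratio -0.31). Ptbp2 stood at 8.1 ± 1.5 TPM and Ptbp3 at 3.0 ± 1.5 TPM. Esrp1, a splicing factor of epithelia, had a count of 0 in both animals.

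The animals were compared by log2 ratios of CPM, replicate 2 over replicate 1, after TMM scaling and with a prior count of 2. No member reached a 2-fold difference (0 of 4), and 1.39% of 11125 genes with a mean count of at least 50 did. Tpm1 was level at 0.01, with 348399 and 355963 counts, and Tpm2 stood at 0.13, with 71619 and 79751 counts. Tpm3 stood at 0.29, with 5077 and 6323 counts, and 20.1% of genes had a larger difference in either direction. Tpm4 stood at -0.71, with 675 and 417 counts, and 3.36% of genes had a larger difference. Scaling to the ERCC spike-ins moved the median of all genes by -0.12 and gave Tpm1 -0.11, Tpm2 0.01, Tpm3 0.17 and Tpm4 -0.84. Relative to that shift the members kept their places, and the sign of Tpm1 turned.

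The counting error of Tpm4 did not cover its difference. Its CPM was 15.8 in replicate 1 (95% Wilson interval 14.7 to 17.1) and 9.63 in replicate 2 (8.75 to 10.6). The 95% counting interval of its log2 ratio ran from -0.89 to -0.54, and the second quantification gave -0.63. Counting intervals hold no variation between animals or preparations, so the difference describes these libraries.

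**Figure D5:**
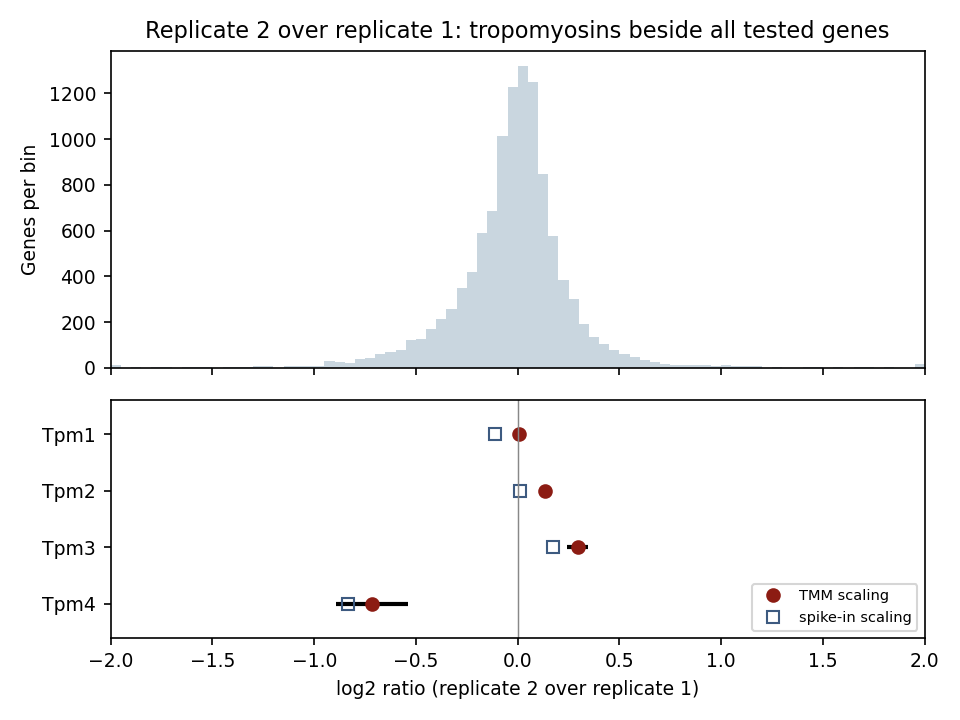
Upper panel: number of genes per bin of log2 ratio (replicate 2 over replicate 1) for 11125 genes, with larger ratios in the end bins. Lower panel: the 4 tropomyosins with TMM scaling (filled circles, bars giving 95% counting intervals) and spike-in scaling (open squares). Tpm4 at -0.71 lies in the lower tail and Tpm1 at 0.01 near the centre. Tpm2 at 0.13 lies above 78.9% of genes and Tpm3 at 0.29 above 92.4%.

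Markers of several cell types also differed between the 2 libraries. The median log2 ratio of the 6 slow fibre markers was 0.24, with all 6 higher in replicate 2, beside 0.29 for Tpm3. All 6 fibroblast markers were lower in replicate 2 (median -0.26, summed level 265 and 205 TPM), as were 5 of 6 endothelial markers (-0.23, 61.7 and 49.8 TPM) and 6 of 7 tested smooth muscle and pericyte markers (-0.18). The Tpm4 ratio of -0.71 had the same sign and was larger than any of these medians. The 6 fast fibre markers had a median of -0.02, with 5 lower in replicate 2, while their summed level was 56278 and 49592 TPM. Summed TPM thus also fell where log2 ratios were near 0. Macrophage markers summed to 2.94 and 2.87 TPM, and the 1 that was tested, Csf1r, stood at 0.08. Satellite cell markers summed to 2.24 and 1.97 TPM. The part of these cells in the Tpm3 and Tpm4 ratios was not tested, and in tissue RNA fewer cells of a type cannot be told apart from less RNA per cell.

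The thin filament list had no common direction between the animals. Of its 17 tested genes, 8 were higher and 9 lower in replicate 2, none reached 2-fold, and the median was -0.02, against -0.002 for all genes tested. Its highest ratio was 0.58 (Actc1) and its lowest -0.60 (Tmod2, a tropomodulin that caps filament ends). Tmod3, another tropomodulin, stood at -0.56. The muscle tropomodulin Tmod4 (334 ± 30.4 TPM) stood at -0.04 and nebulin, Neb (3590 ± 388 TPM), which runs along the filament, at -0.04.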

How the data were processed

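Per the library descriptions, the authors quantified reads on mm10 with GENCODE M21; which programs made them, and in which version, is not given in the sources used here. Per library, the authors deposited a gene and a transcript table from transcriptome alignments and a transcript table made directly from reads. Deposited expected counts are estimated, unnormalized reads. Deposited TPM values are scaled for effective length and to a fixed total per library, so short models gain TPM from few reads; deposited FPKM values were not used in results. Deposited percent values state how much of a gene each transcript makes up. Credibility bounds of TPM were left aside.

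Symbols came from the transcript names in the second table. Exons and sequences came from GENCODE M21: exon 9a is the end nearest to exon 8, exon 9d the farthest. Complete coding transcripts have a start and a stop codon. Values are mean ± SD over 2 animals. Expected counts were rounded for edgeR 4.0.16 (R 4.3.3; TMM, prior count 2, mean count at least 50), tested on simulated data; DESeq2 1.42.0 size factors were an alternative. Named transcripts reached 5% of their gene in either quantification and library, and others follow the exon classes. The thin filament list held 20 genes: actins, troponins, nebulin, tropomodulins and leiomodins. Its troponins and actins were named, as were the 3 highest splicing regulators. Ptbp1, Ptbp2, Ptbp3, Esrp1, Neb, the tropomodulins and the markers Rgs5, Smtn and Csf1r were added after their values were seen. The members and lists were chosen with earlier results of these data known. Tables were handled with Python 3.11.15 and pandas 2.3.3. Reads were not split by parental allele, and signal tracks were not analysed here.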

Additional observations from a re-analysis of the deposited data

How the results depend on the processing

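Under alternatives, a value is called moved if it shifted by more than the SD between animals. The second quantification moved the levels of Tpm1 (9049 TPM), Tpm2 (2426 TPM) and Tpm3 (145 TPM), the family shares of Tpm1 (77.8%) and Tpm2 (20.9%), the ratio of Tpm2 to Tpm1 (0.269 against 0.200), the striated-type shares of Tpm1 (92.9%) and Tpm2 (29.6%), and the shares of the leading transcripts of Tpm1 (65.1%), Tpm2 (29.6%) and Tpm4 (94.1%). Together with the limit to transcripts with a start and a stop codon, chosen after seeing the data, it gave striated-type shares of 93.2% for Tpm1, 55.2% for Tpm2 and 97.4% for Tpm3. Posterior means moved the Tpm2 level (2076 TPM), the striated-type and leading shares of Tpm3 (both 95.0%) and the leading share of Tpm4 (95.2%). The Tpm2 level was judged against an SD of 19.6 TPM. Rescaling over nuclear protein-coding genes moved no gene level, but there the SD of Tpm2 was 182 TPM and that of Tpm1 33.1 TPM. Expected counts gave striated-type shares of 98.5% for Tpm1, 79.0% for Tpm2 and 94.5% for Tpm3, and a family share of 0.126% for Tpm4. Restricting to protein-coding transcripts gave striated-type shares of 99.8%, 54.0% and 97.5% for Tpm1, Tpm2 and Tpm3, and leading shares of 98.7%, 54.0% and 97.5%. Restricting to transcripts with a start and a stop codon gave 99.7%, 78.9% and 97.7% striated type. Transcripts of at least 500 bases, also chosen after seeing the data, gave 78.8% striated type for Tpm2 and 96.9% for Tpm3, family shares of 88.0% for Tpm1 and 10.4% for Tpm2, and a ratio of Tpm2 to Tpm1 of 0.119. Dividing few reads by a short effective length is part of how TPM is built. With only transcripts that have a start and a stop codon, the striated-type share of Tpm2 still differed between quantifications (78.9% and 55.2%). The causes of the moved values were not tested. Spike-in scaling moved the log2 ratios of Tpm1 (-0.11), Tpm2 (0.011) and Tpm3 (0.17). Size factors from DESeq2, a prior count of 0.5, a mean count of at least 10, no count filter and the second quantification moved none of the 4 ratios beyond its counting interval. Leaving out 1 of 2 animals cannot shift a mean by more than the SD, so it says nothing about stability. No paired analysis was possible because all libraries belong to a single group. With 2 animals the SD itself is imprecise, and Tpm4, with 675 and 417 counts, is the member that depth limits most.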

Other observations

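Short models carried few reads for their TPM. Tpm2-204 and Tpm2-206 together held 40.5 ± 1.91% of Tpm2 TPM but 9.59 ± 0.646% of its expected counts. In the second quantification Tpm2-206 stood at 19.4 ± 20.7 TPM against 583 ± 2.40 in the first, and Tpm2-204 at 1102 ± 18.8 TPM against 277 ± 50.8. In Tpm4, Tpm4-202 held 5.89 ± 0.910% of TPM but 0.398 ± 0.0679% of estimated counts by the second quantification. In Tpm1, 7 of 21 transcripts were at 0 in both animals and both quantifications. Its highest non-coding transcript, Tpm1-219, held 1.69% and 2.10% of Tpm1 TPM by the first quantification, but 0.0878% and 0.0745% by the second. The exon 1b transcripts of Tpm1 came to 5.16 ± 2.23 TPM and to 13.9 ± 0.883 TPM by the second quantification, beside 9.13 ± 3.87 TPM for the whole of Tpm4.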
